A study of Homo sapiens with 8 samples.

Results

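Small nucleolar RNA host genes are genes whose introns carry small nucleolar RNAs (snoRNAs). The set described here was defined by a rule on symbols, and it was chosen with earlier results of these data known. It took every entry of the expression table named SNHG followed by a number. GAS5, ZFAS1, DANCR, EPB41L4A-AS1, TAF1D, NOP56, NOP58, NCL, EPRS and CCAR1 were added. The entry of highest mean level was kept where a symbol stood on several entries. The rule found 35 entries and 34 host genes among the 63816 entries of the table. Of these, 27 were annotated as long noncoding RNA (lncRNA) and 7 as protein-coding, the latter including the retained SNHG28 entry (ENSG00000256029).

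A snoRNA is cut out of the spliced intron of its host and guides the chemical modification of ribosomal or spliceosomal RNA. Box C/D snoRNAs guide 2′-O-methylation and box H/ACA snoRNAs guide pseudouridylation, each in a particle with its own set of proteins. In the noncoding hosts the spliced exons make no known protein and are often removed by nonsense-mediated decay, and many hosts begin with a terminal oligopyrimidine motif, a start signal shared with ribosomal protein genes that ties their translation to the growth state of the cell.

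The cells were Caco-2, an established line from a human colorectal adenocarcinoma, which the study used as a line without Siglec-XII. There were 4 samples stably transfected with the empty vector pCDNA-3.1 and 4 samples stably transfected with the same vector carrying full-length SIGLEC12, and both groups had been selected with G418. The study mentions stable clones and technical replicate libraries, and its count of cultures is below the number of samples in the labels, so a group may represent 1 clone or 1 culture, and the errors and p-values below measure only the spread between these samples. SIGLEC12 itself was 0.11 ± 0.05 with the empty vector and 10.7 ± 0.06 in Siglec-XII cells on the log2(TPM + 1) scale (SD, n = 4 each), where TPM is the number of transcripts of a gene per 1e+06 transcripts.

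Per the labels, 25 M to 40 M reads per sample were made, as 100 bp from both ends of each fragment, while the table holds TPM and no counts, so the reads behind each value are unknown. Between 15513 and 15934 entries reached 1 TPM in a sample, and no pair of columns was identical. The label of the cells was checked against 4 marker lists. Only CDX1 and CDX2 of 14 colon epithelium markers reached 1 TPM in at least 4 samples, and FABP1, KRT20 and SI were listed at 0 in every sample, whereas all 5 general epithelial markers (KRT8, KRT18, KRT19, EPCAM and CDH1) reached it. Of 16 trophoblast markers 12 reached it, led by XAGE2 at 9.65 ± 0.06 and GATA3 at 8.64 ± 0.22 in the empty vector group. Some passed only at low levels in that group. CYP19A1 was at 2.32 ± 0.52, ERVW-1 at 1.26 ± 0.14, ERVFRD-1 at 1.16 ± 0.50, PSG3 at 1.13 ± 0.32 and CGA at 0.95 ± 0.41. CGB3, CGB5, CGB8 and LEP stayed below the limit. Of 6 fibroblast markers 5 reached it. The colon markers therefore go against the label for most of the list, and the cells are called Caco-2 here only as the labels do.

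The host genes differed widely in level. The highest noncoding hosts were ZFAS1, SNHG6, GAS5, SNHG1 and SNHG17, with mean log2(TPM + 1) levels of 8.82, 8.22, 8.01, 7.71 and 7.66 over the 8 samples, and NCL, the gene for nucleolin, was the highest of the set at 10.57. The 4 most abundant noncoding hosts held 56.0% to 62.4% of the TPM of all noncoding hosts in a sample. In total 31 host genes, 25 noncoding and 6 coding, reached 1 TPM in at least 4 samples and were tested. SNHG22 was 0.77 ± 0.17 with the empty vector and 1.1 ± 0.31 in the Siglec-XII samples (SD, n = 4 each), SNHG28 was below 0.5 in every sample, and SNHG27 was listed at 0 in all 8, so these 3 were not tested.

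**Figure D1:**
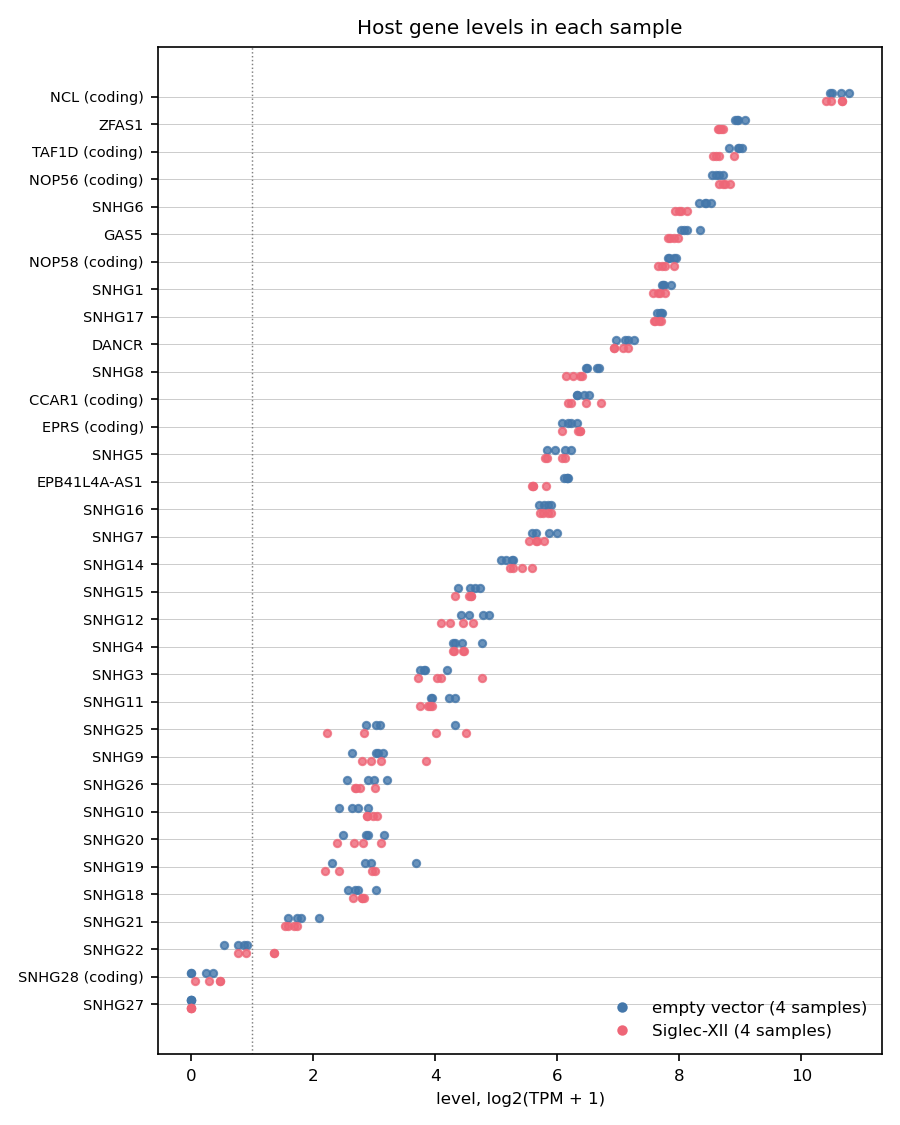
Level of each of the 34 host genes, as log2(TPM + 1), in the 4 empty vector samples (blue) and the 4 Siglec-XII samples (red), 1 point per sample, ordered by mean level. The dotted line marks 1 TPM. The groups are apart for ZFAS1, SNHG6, GAS5, SNHG8 and EPB41L4A-AS1 and overlap for the other hosts, and the spread between samples widens below a level of 5.

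With Siglec-XII, 3 noncoding host genes were called lower, EPB41L4A-AS1, SNHG6 and ZFAS1, and no host gene was called higher. The test was limma on log2(TPM + 1) with Benjamini-Hochberg adjustment over all 15590 tested entries, and a call needed an adjusted p under 0.05. The 3 calls were 9.68% of the 31 tested host genes, beside 0.648% of all tested entries called in either direction, 0.308% called lower and 0.34% called higher. Of the 1340 tested lncRNA entries 5 were called lower, and the other 2, named here after their values were seen, were AC068385.1 and AD000090.1.

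Counts without the adjusted threshold include the 3 called hosts. The estimate was lower with Siglec-XII for 23 of the 31 tested host genes and higher for 8, with a median log2FC (log2 fold change) of -0.10. Over all tested entries the median was 0.07 and 31.9% of the estimates were lower. Among the 1340 tested lncRNA entries the median was 0.03 and 44.1% were lower. At an unadjusted p of 0.05 or less there were 8 lower host genes (25.8%, beside 2.61% of all entries) and 1 higher (3.23%, beside 13.9% of all entries). Under quantile normalization, equal upper quartiles or removal of the length trend these became 12 lower and 0 higher, and the share of all entries that were lower at this p rose to between 5.63% and 5.94%. The host median was -0.15 under equal upper quartiles, where that of all entries was 0.01, and -0.05 without empty vector replicate 4, where it was 0.08. The 4 Siglec-XII samples lay wholly below the 4 empty vector samples in 5 host genes (16.1%, beside 1.68% of all entries), and no host gene lay wholly above, beside 9.17% of all entries.

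**Figure D2:**
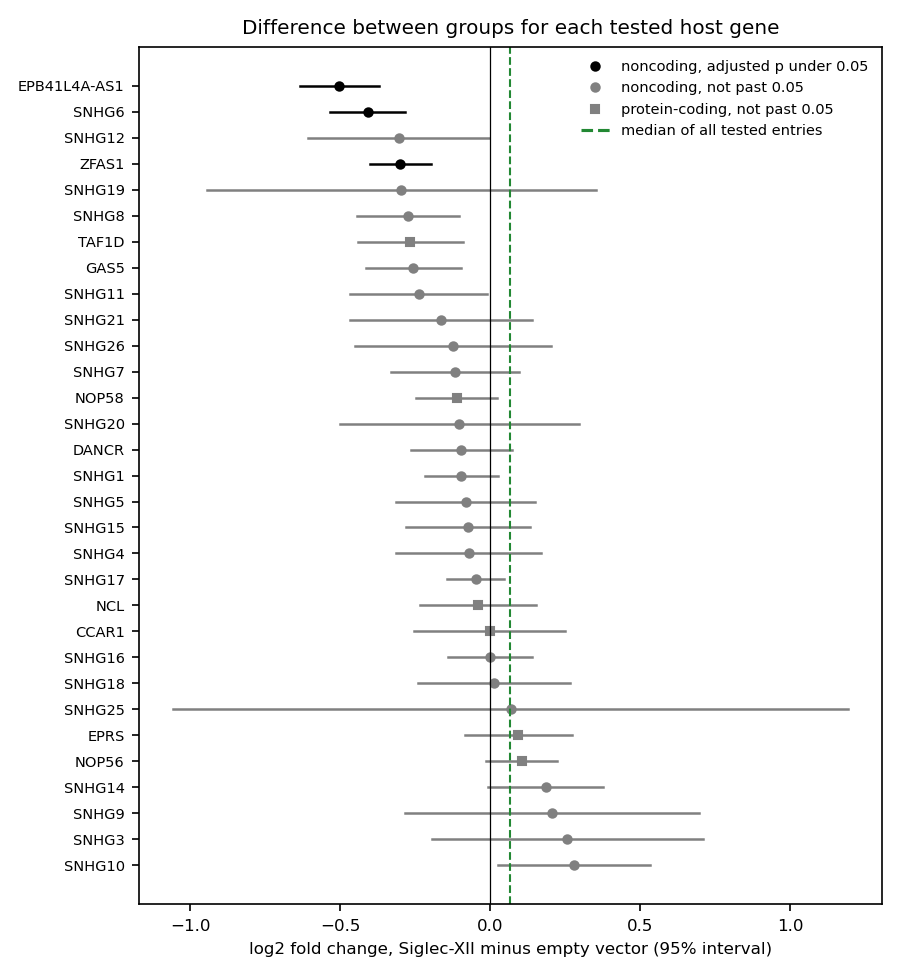
Log2 fold change (Siglec-XII minus empty vector) of the 31 tested host genes with its 95% interval, from limma on 4 samples per group. Black points are the 3 hosts with an adjusted p under 0.05, squares are protein-coding hosts, and the dashed line is the median of all tested entries, 0.07. The 3 called hosts lie between -0.50 and -0.30.

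EPB41L4A-AS1 (ENSG00000224032, chr5:111496223-111500515 in GRCh37, plus strand) carries the H/ACA snoRNA SNORA13 and had the largest drop of the set. Its log2(TPM + 1) level was 6.12, 6.16, 6.15 and 6.18 in the empty vector samples and 5.59, 5.60, 5.59 and 5.81 in the Siglec-XII samples. The groups were separated by 0.31, and 3 of the 4 Siglec-XII samples lay close together with replicate 4 above them. The log2 fold change was -0.50 with a standard error of 0.06 and an adjusted p of 0.00418, and the mean TPM fell by 29.7%, from 70.1 to 49.2. Of its exon bases, 51.3% lie opposite exons of EPB41L4A, a cytoskeletal band 4.1 family gene, whose own level was 1.34 ± 0.32 with the empty vector and 1.28 ± 0.54 in Siglec-XII cells (adjusted p = 0.935).

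SNHG6 (ENSG00000245910, chromosome 8, minus strand) is the host of the box C/D snoRNA SNORD87. Its level was 8.51, 8.43, 8.31 and 8.44 with the empty vector and 8.12, 8.0, 8.02 and 7.93 in the Siglec-XII samples. All Siglec-XII samples were below all empty vector samples, with a gap of 0.20 between the nearest samples. The log2 fold change was -0.41 (SE 0.06, adjusted p = 0.0118) and the mean TPM fell by 24.8%, from 343 to 258. MCMDC2, a meiotic gene on the opposite strand that covers 58.9% of the exon bases of SNHG6, was far lower, at 1.36 ± 0.05 and 1.19 ± 0.14.

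ZFAS1 (ENSG00000177410, chr20:47894715-47916137 in GRCh37, plus strand) hosts SNORD12, SNORD12B and SNORD12C and was the most abundant noncoding host. Its level was 8.92, 8.95, 8.95 and 9.07 with the empty vector and 8.69, 8.64, 8.72 and 8.65 in Siglec-XII cells. Both groups were tight, and they did not overlap. The log2 fold change was -0.30 (SE 0.04, 95% interval -0.40 to -0.20, adjusted p = 0.0200) and the mean TPM fell by 18.8%, from 502 to 407. The call was the least firm of the 3: leaving out empty vector replicate 3 or Siglec-XII replicate 1, 2 or 4 gave adjusted p-values of 0.0744, 0.0732, 0.0859 and 0.0706. Leaving out Siglec-XII replicate 2 also took SNHG6 to an adjusted p of 0.0523. ZNFX1, the zinc finger gene whose start lies opposite that of ZFAS1, was 3.84 ± 0.13 and 4.07 ± 0.04 (log2 fold change 0.23, adjusted p = 0.209).

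GAS5 and SNHG8 were also separated between the groups but did not pass the adjusted threshold. GAS5, first described as a transcript that accumulates in growth arrest, was 8.07, 8.12, 8.03 and 8.34 with the empty vector and 7.97, 7.84, 7.82 and 7.91 in the Siglec-XII samples. Its nearest samples were 0.06 apart, and empty vector replicate 4 was the highest. The log2 fold change was -0.26 (SE 0.07, adjusted p = 0.137). SNHG8 was 6.49, 6.46, 6.68 and 6.65 with the empty vector and 6.14, 6.26, 6.38 and 6.41 in Siglec-XII cells, again with a gap of 0.06 and wider groups. Its log2 fold change was -0.27 (SE 0.08, adjusted p = 0.138), and PRSS12, a serine protease gene opposite 37.6% of its exon bases, was 6.85 ± 0.06 and 6.92 ± 0.04.

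**Figure D3:**
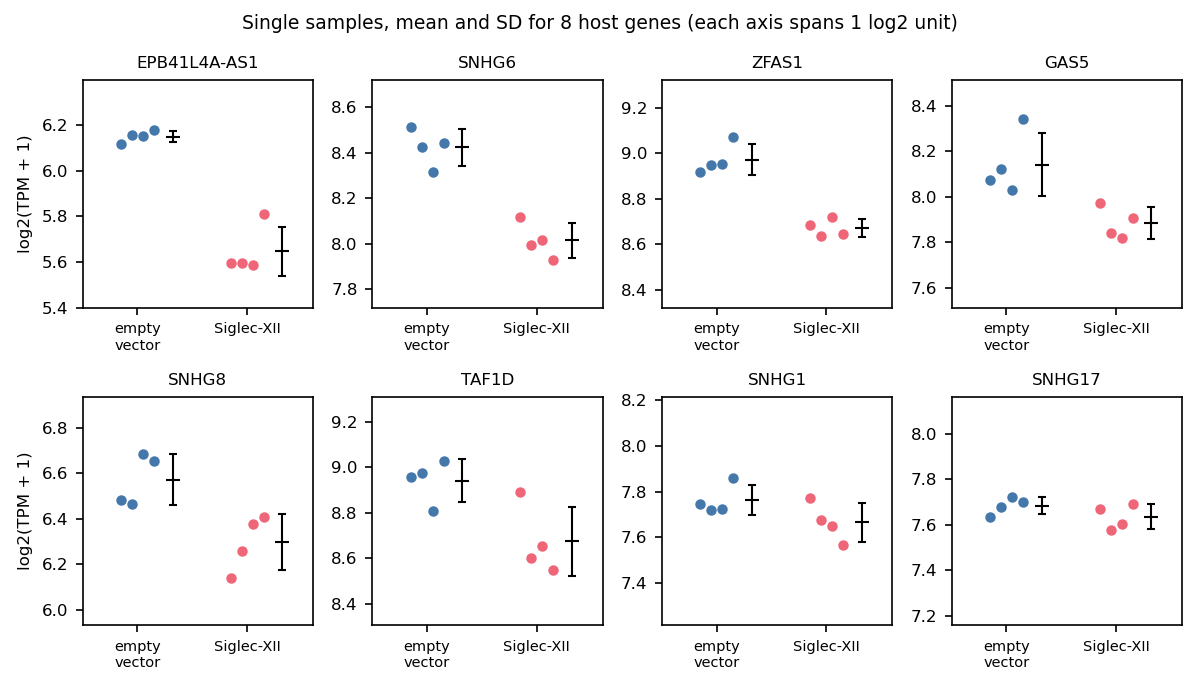
Single-sample log2(TPM + 1) values of 8 host genes in the empty vector (blue) and Siglec-XII (red) groups, with the mean and SD of 4 samples beside each. The vertical axes differ in level and share a span of 1 log2 unit. The groups are apart in EPB41L4A-AS1, SNHG6, ZFAS1, GAS5 and SNHG8 and overlap in TAF1D, SNHG1 and SNHG17.

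Among the remaining hosts, 4 had an unadjusted p of 0.05 or less and an adjusted p above the threshold. TAF1D, which encodes a subunit of the selectivity factor of RNA polymerase I and carries a cluster of snoRNAs, was 8.96, 8.97, 8.81 and 9.03 with the empty vector and 8.89, 8.60, 8.65 and 8.55 in the Siglec-XII samples. Siglec-XII replicate 1 lay within the empty vector range and the other 3 below it, and the log2 fold change was -0.27 (SE 0.08, adjusted p = 0.154). SNHG12, host of SNORD99, was 4.42, 4.77, 4.55 and 4.88 with the empty vector and 4.62, 4.46, 4.10 and 4.24 in Siglec-XII cells, with overlapping groups and a log2 fold change of -0.31 (SE 0.13, adjusted p = 0.297). SNHG11, host of SNORA60, was 3.93, 4.32, 3.95 and 4.23 against 3.91, 3.95, 3.75 and 3.88. Its groups overlapped by a single sample, and its log2 fold change was -0.24 (SE 0.10, adjusted p = 0.285). SNHG10, host of the Cajal body RNA SCARNA13, was the only one of the 4 with a higher estimate, at 2.63, 2.42, 2.90 and 2.74 against 2.99, 3.05, 2.89 and 2.89. Empty vector replicate 3 lay just above the lowest Siglec-XII samples, and the log2 fold change was 0.28 (SE 0.11, adjusted p = 0.265).

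None of the other abundant noncoding hosts was called. SNHG1, the host of SNORD22 and other box C/D snoRNAs, was 7.74, 7.72, 7.72 and 7.86 with the empty vector and 7.77, 7.68, 7.65 and 7.57 in the Siglec-XII samples. The groups overlapped through Siglec-XII replicate 1, and the log2 fold change of -0.10 had a 95% interval from -0.22 to 0.03. SNHG17, which carries the SNORA71 snoRNAs, was 7.63, 7.68, 7.72 and 7.70 against 7.67, 7.58, 7.60 and 7.69. Its interval, -0.14 to 0.05, was the narrowest among the tested noncoding hosts and does not reach the fold change of any called host. DANCR, host of SNORA26 and known as an RNA that holds back differentiation, was 6.96, 7.10, 7.16 and 7.26 against 6.93, 6.93, 7.07 and 7.16, and its interval was -0.27 to 0.07. SNHG5, host of the SNORD50 snoRNAs, was 5.83, 6.23, 5.97 and 6.12 against 6.08, 5.83, 5.79 and 6.12, with an interval of -0.32 to 0.15. In both of these hosts the samples of the groups were interleaved.

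None of the hosts that encode nucleolar proteins was called. NOP56 and NOP58 encode a pair of core proteins of the box C/D particle, and nucleolin, encoded by NCL, takes part in ribosomal RNA transcription and processing. NOP56 was 8.54, 8.61, 8.65 and 8.72 with the empty vector and 8.82, 8.65, 8.75 and 8.71 in Siglec-XII cells, a log2 fold change of 0.10 with an interval of -0.01 to 0.22. NOP58 was 7.94, 7.91, 7.83 and 7.82 against 7.91, 7.71, 7.77 and 7.65, a log2 fold change of -0.11 with an interval of -0.25 to 0.02. NCL was 10.78, 10.64, 10.46 and 10.50 against 10.66, 10.48, 10.67 and 10.40, a log2 fold change of -0.04 with an interval of -0.23 to 0.15. In each of the 3 the groups overlapped and the adjusted p was at least 0.353. Of the last coding hosts, EPRS, which encodes the glutamyl-prolyl tRNA synthetase, had a log2 fold change of 0.09 (SE 0.08), and CCAR1, a coactivator of transcription, of 0.00 (SE 0.11).

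The noncoding hosts not yet named had adjusted p-values above 0.3. SNHG7, SNHG15 and SNHG4 had log2 fold changes of -0.12, -0.07 and -0.07, with standard errors of 0.09, 0.09 and 0.11. SNHG16, host of SNORD1B, had a log2 fold change of 0.00 (SE 0.06). SNHG14, the long transcript of the imprinted Prader-Willi region that runs antisense to UBE3A, was 5.19 ± 0.09 with the empty vector and 5.38 ± 0.16 in the Siglec-XII samples, a log2 fold change of 0.18 (SE 0.09, adjusted p = 0.323). SNHG3, which shares exon bases with RCC1, was 3.90 ± 0.20 and 4.16 ± 0.44. For SNHG9, SNHG18, SNHG19, SNHG20, SNHG21, SNHG25 and SNHG26 the estimates ran from -0.30 in SNHG19 to 0.21 in SNHG9, with standard errors from 0.11 to 0.50. The SNHG19 estimate was -0.05 without empty vector replicate 4 and -0.51 when replicate 1 of that group was left out, and the SNHG9 estimate was -0.02 without Siglec-XII replicate 1. SNHG25, the shortest named transcript of the set at 108 nt, had the widest samples, from 2.86 to 4.32 with the empty vector and from 2.23 to 4.51 in Siglec-XII cells.

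Standard errors were mostly smaller at higher levels. The 12 noncoding hosts at a mean log2 level of 5 or more had standard errors of 0.04 to 0.10. Of these, 11 had lower estimates, with SNHG14 the exception, and their median log2 fold change was -0.11. At that level 29.8% of all tested entries and 58.9% of the 56 lncRNA entries, the hosts included, had lower estimates. The 13 noncoding hosts under 5 had standard errors of 0.09 to 0.50, and 8 had lower estimates. Split at 1000 nt of the transcript named in the entry, the shorter 14 tested hosts had a median of -0.10 with 12 lower, and the longer 17 a median of -0.08 with 11 lower, beside medians of 0.04 and 0.07 for all tested entries of those lengths.

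As a share of all TPM, the 27 noncoding hosts together took 0.213%, 0.219%, 0.215% and 0.237% in the empty vector samples and 0.198%, 0.186%, 0.190% and 0.191% in the Siglec-XII samples. The group means were 0.221% ± 0.0113 and 0.191% ± 0.00507 (SD, n = 4 each), and the samples did not overlap. This share is not separate from the calls, since it contains the called hosts. Of these, ZFAS1 fell from a mean of 502 to 407 TPM and SNHG6 from 343 to 258 TPM. The 7 coding hosts took 0.283% ± 0.0170 and 0.272% ± 0.0224, with overlapping samples. In the noncoding hosts 2 samples were often at the ends of their group: empty vector replicate 4 was the highest of its group in 13 of the 25 tested and the highest of all 8 samples in 10, while empty vector replicate 1 was the lowest of its group in 15. The low position of replicate 1 was shared by all tested entries. Its median deviation from the mean of the 8 samples was -0.09 in the noncoding hosts and -0.09 over all entries. For empty vector replicate 4 these medians were 0.19 and -0.01. Without empty vector replicate 4 the 3 calls were still made, and 6 rather than 8 hosts had a lower estimate at an unadjusted p of 0.05 or less. Marker sums moved with the groups as well. The trophoblast list summed to between 2267 and 2314 TPM in the empty vector samples and between 2156 and 2191 TPM in the Siglec-XII samples, although 6 of its 12 tested genes had higher estimates. The general epithelial list, with 5 of 5 estimates higher, summed to between 8257 and 9230 TPM and between 9840 and 10220 TPM. KRT8 and KRT18 were its highest genes. The colon list summed to between 163 and 186 TPM and between 190 and 216 TPM, nearly all of it from CDX1 and CDX2. The fibroblast sums, 70.7 to 86.8 TPM and 83.2 to 89.1 TPM, overlapped. The part of these differences in the host gene results was not tested. In bulk RNA, fewer cells of a type and less RNA per cell cannot be told apart.

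The start sites of the hosts are shown because the terminal oligopyrimidine motif is the sequence feature for which the family is best known. RefSeq start sites (GRCh38.p14) were matched for 29 of the 34 hosts. Each line below gives 15 bases before and 15 bases from the annotated start, 5′ to 3′, and the capitals mark the first transcribed base with the unbroken run of C and T that follows a C at the start.
ZFAS1, chr20:49278627-49278656, plus: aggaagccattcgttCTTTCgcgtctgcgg
SNHG5, chr6:85678719-85678748, minus: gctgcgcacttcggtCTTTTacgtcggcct
SNHG12, chr1:28581859-28581888, minus: tcgcggcttcagcgcCCTTTCTCCCCgccg
TAF1D, chr11:93741481-93741510, minus: acggaaatagccaacCCTTTTCTTCCgcac
SNHG19, chr16:2155344-2155373, minus: ctcgcccgcccctgtCTTTTCggggtcgag
SNHG1, chr11:62855871-62855900, minus: ccggggagattcgttCTCatttttctactg
SNHG8, chr4:118278747-118278776, plus: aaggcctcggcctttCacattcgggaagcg
EPB41L4A-AS1, chr5:112160511-112160540, plus: tggactcatgaattcTgtcgggtcccaaaa
NOP56, chr20:2652617-2652646, plus: gagcgcgctagccgcAttgcgagccgaacc

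A start written as C followed by at least 4 bases that are each C or T, read on the transcribed strand only, was found in 7 of the 29 matched hosts (24.1%) and in 4.07% of all 35116 promoters of the table. The 7 were ZFAS1, TAF1D, SNHG5, SNHG12, SNHG4, SNHG19 and SNHG18. Their log2 fold changes ran from -0.31 in SNHG12 to 0.01 in SNHG18, with a median of -0.27 and 6 lower. The windows of SNHG4 (-0.07) and SNHG18 are not printed above. Over all tested entries 31.9% were lower, and the fold changes of the other promoters with these letters were not compared. The 19 tested hosts whose matched start lacked these letters had a median of -0.10 with 14 lower, and they include EPB41L4A-AS1, the host with the largest drop. SNHG6, which was called, and NOP58, SNHG9, SNHG15 and SNHG25 had no matched start and are in neither group. These are descriptions of the annotated start, which need not be the start used in these cells.

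The snoRNAs inside the hosts were measured far less precisely than the hosts. The GRCh37 annotation places 117 snoRNA or small Cajal body RNA genes inside the hosts on the same strand, of which 114 had an entry in the table, 45 were above 0 in any sample and 28, in 17 hosts, passed the filter. None was called by limma, and the lowest adjusted p was 0.0981. At an unadjusted p under 0.05 there were 2 lower, SNORA71A and SNORD12B, and 1 higher, SNORD60, beside 2.61% and 13.9% of all tested entries. The estimate was higher for 20 and lower for 8, where 31.9% of all entries were lower, at a median log2FC of 0.40 and a median standard error of 0.65, beside 0.09 for the hosts. Entries can be near copies: SNORD116-3 and SNORD116-9 in SNHG14 had the same value in every sample. All 45 SNORD115 entries of SNHG14 were listed at 0, and 16 of the 25 SNORD116 entries were above 0. By RefSeq gene names 95 of the 142 snoRNAs of the hosts with an entry were listed at 0 in all samples, and none of the 11 snoRNAs of GAS5 had an entry under its name.

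The guests of ZFAS1 and EPB41L4A-AS1 are shown because their hosts were called, SNORA71A and SNORD60 because their unadjusted p was under 0.05, and SNORD104 because its level was the highest. SNORD87, the guest of SNHG6 by RefSeq name, was listed at 0 in all samples, and no sequence is printed for it. The sequences are those of the GENCODE transcripts lifted to GRCh37, written as DNA. Capitals mark box C (TGATGA, within the first 25 bases) and box D (the last CTGA, within the last 20 bases) in SNORD genes and the ACA within the last 10 bases in SNORA genes.
SNORD12, chr20:47897220-47897309, plus: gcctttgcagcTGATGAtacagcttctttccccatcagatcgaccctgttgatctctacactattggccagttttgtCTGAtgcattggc
SNORD12B, chr20:47896856-47896946, plus: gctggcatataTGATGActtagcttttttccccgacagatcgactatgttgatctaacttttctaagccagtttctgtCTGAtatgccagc
SNORD12C, chr20:47895477-47895565, plus: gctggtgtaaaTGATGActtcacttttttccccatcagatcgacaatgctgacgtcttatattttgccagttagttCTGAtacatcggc
SNORD60, chr16:2205024-2205106, minus: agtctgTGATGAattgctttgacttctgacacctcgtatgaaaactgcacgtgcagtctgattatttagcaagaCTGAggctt
SNORD104, chr17:62223443-62223512, plus: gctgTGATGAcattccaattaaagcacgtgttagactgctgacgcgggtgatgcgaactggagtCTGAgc
SNORA13, chr5:111497182-111497314, plus: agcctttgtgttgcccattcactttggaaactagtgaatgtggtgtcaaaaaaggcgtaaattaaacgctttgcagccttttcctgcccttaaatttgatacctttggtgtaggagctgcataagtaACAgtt
SNORA71A, chr20:37055952-37056085, minus: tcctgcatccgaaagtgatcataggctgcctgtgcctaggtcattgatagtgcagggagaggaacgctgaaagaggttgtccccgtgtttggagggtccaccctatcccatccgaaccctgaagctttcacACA

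The SNORD12 copies are related but not identical, with 64.8% to 74.2% of aligned positions the same, and the longest stretch shared by any pair is 18 bases. Of all 390 annotated SNORD genes, 59.2% hold box C and 80.3% hold box D in these windows, and 72.9% of the 399 SNORA genes hold the ACA. SNORD12B was 4.8, 4.88, 4.66 and 4.54 with the empty vector and 0.00, 2.15, 2.34 and 3.90 in Siglec-XII cells. The groups did not overlap, the log2 fold change was -2.62 (SE 0.65, adjusted p = 0.109), and without Siglec-XII replicate 4, the highest of its group, the adjusted p was 0.0407. SNORD12C, from the same host, had the opposite sign, at 2.70 ± 1.86 and 3.63 ± 0.66, a log2 fold change of 0.93 (SE 0.79, adjusted p = 0.595).

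SNORA71A, inside SNHG17, was 3.18, 3.77, 4.03 and 3.97 with the empty vector and 2.69, 2.31, 1.71 and 3.10 in the Siglec-XII samples. The groups did not overlap, and the log2 fold change was -1.28 (SE 0.29, adjusted p = 0.0981). Its tested copies in SNHG17 had the opposite sign, SNORA71B at 0.47 (SE 0.23) and SNORA71C at 0.37 (SE 0.37). SNORA71A and SNORA71C share 83.1% of aligned positions. For the summed TPM of all SNHG17 guests, on the log2 scale, the groups differed by -0.07. Whether reads were divided differently among these copies was not tested. SNORD60, inside SNHG19, was 2.22, 2.21, 3.40 and 3.48 against 3.44, 3.58, 4.04 and 3.98, with groups that overlapped slightly and a log2 fold change of 0.93 (SE 0.31, adjusted p = 0.199). SNORA13, the guest of EPB41L4A-AS1, was 0.00, 2.61, 4.61 and 3.08 against 2.71, 2.33, 2.99 and 3.13. Its empty vector samples spanned the whole Siglec-XII range, so a difference of the size seen in its host was not detectable at this spread. By the naming rule the lowest and highest estimates also took in SNORD116-2 at -1.34 (SE 1.33), SNORD116-6 at 1.6 (SE 1.09), SNORD99 at 1.17 (SE 0.86) and SNORD116-24 at 1.14 (SE 0.68).

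Summed per host, the guests could hardly pass an adjusted threshold in this design, so the lack of a call says nothing about stability. For the 18 hosts whose summed guests reached 1 TPM in at least 4 samples, the two-sided exact permutation test gave a lowest p of 0.0571 and a lowest adjusted p of 0.514, where the smallest p that 70 labellings allow is 0.0286, so a single sum at that p would also have an adjusted p of 0.514. The summed guests of ZFAS1 were 4.8, 6.0, 5.12 and 5.37 with the empty vector and 4.42, 3.49, 3.74 and 4.86 in Siglec-XII cells, a difference of -1.20. Those of SNHG25, which are SNORD104 alone, were 6.85 ± 0.53 and 6.68 ± 0.52, well above the host's own mean of 3.36.

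**Figure D4:**
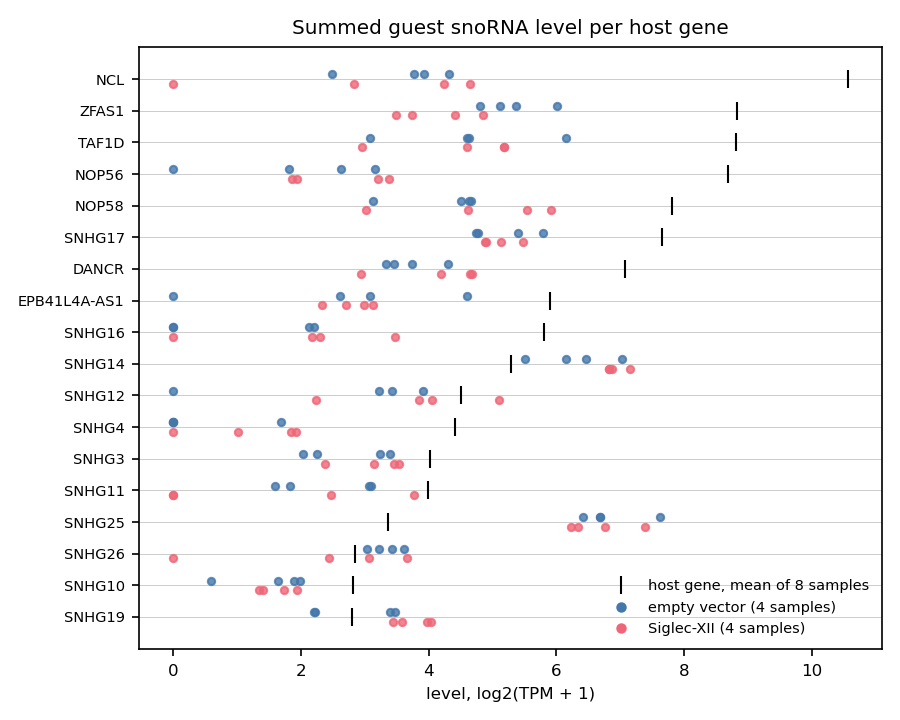
Summed level of the annotated snoRNAs inside each of 18 hosts, as log2(TPM + 1), in the 4 empty vector (blue) and 4 Siglec-XII (red) samples, with the mean level of the host itself as a black tick. The guests scatter over several log2 units within a group, and lie above their host in most samples for SNHG14, SNHG25, SNHG26 and SNHG19.

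The genes around the hosts were compared as 3 lists, and none had a called member. The translation hosts are mostly ribosomal protein and translation factor genes that also carry snoRNAs, together with the chaperone gene HSPA8. Of these 28 tested genes, 25 had lower estimates with Siglec-XII and 14 of those had an unadjusted p of 0.05 or less, at a median log2FC of -0.14 beside 0.07 for all entries, of which 31.9% were lower and 2.61% were lower at that p. The median depended on the scaling, at -0.05 with 20 lower under quantile normalization and -0.20 with 27 lower under equal upper quartiles. Under both of these the median of all entries was 0.01. The lowest were RPL27A at -0.25 (SE 0.05, adjusted p = 0.0891), EEF1B2 at -0.25 and RPL5 at -0.21, and the highest were RPL23A at 0.17, EIF4A1 at 0.05 and EEF2 at 0.01. Of the 25 translation host starts matched in RefSeq, 15 had the C followed by at least 4 pyrimidines.

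Of the 17 proteins of the snoRNA particles and their assembly factors, 9 had higher and 8 had lower estimates, with a median of 0.01, beside 31.9% of all entries lower. The direction depended on the scaling: 13 were lower under quantile normalization and without the length trend, 12 with equal upper quartiles and 10 without the most abundant entries, with medians between -0.05 and -0.03. The share of 31.9% belongs to the values without further scaling. From 0.07 there, the median of all entries moved to 0.01, 0.004, 0.01 and 0.03 under these settings, in the order named. SNU13, which binds the kink turn of box C/D RNAs, was highest at 0.17 (SE 0.10), followed by GAR1, an H/ACA core protein, at 0.17 (SE 0.05, adjusted p = 0.165) and the assembly helicase RUVBL2 at 0.08. The lowest were SHQ1 at -0.14, NHP2 at -0.11 and COIL at -0.09. Of the 15 tested factors of nonsense-mediated decay, 11 had higher estimates and their median was 0.09, close to the 0.07 of all entries. SMG9 at 0.24, SMG5 at 0.23 and the helicase UPF1 at 0.23 were highest, with adjusted p-values of 0.141, 0.138 and 0.15, and UPF3A at -0.16, RBM8A at -0.11 and PNRC2 at -0.05 were lowest.

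**Figure D5:**
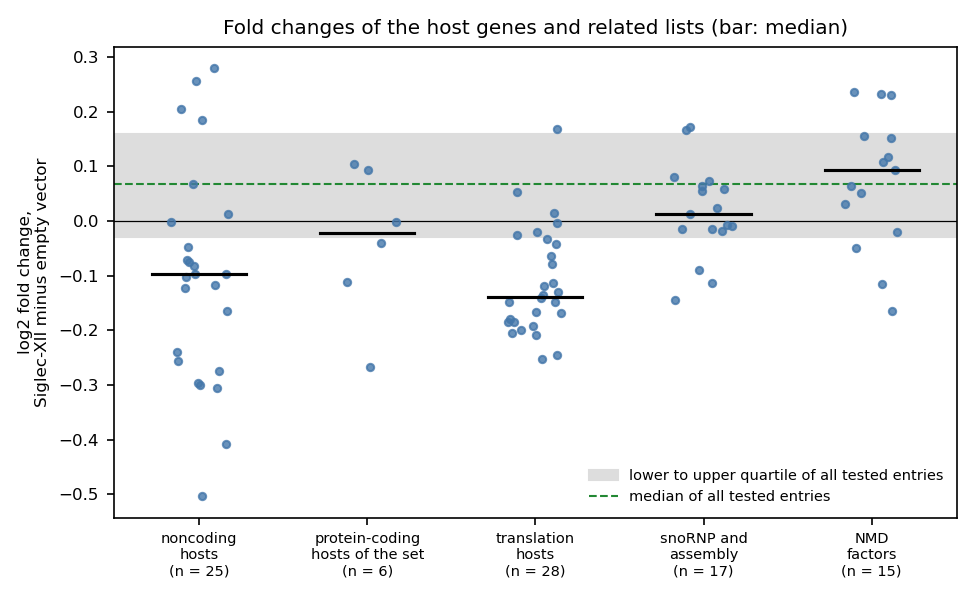
Log2 fold changes (Siglec-XII minus empty vector) of the tested noncoding and protein-coding host genes and of 3 related lists, 1 point per gene, with the median of each as a bar. The grey band runs from the lower to the upper quartile of all tested entries and the dashed line their median of 0.07. The medians of the noncoding hosts (-0.10) and the translation hosts (-0.14) lie below the band, and those of the particle proteins (0.01) and decay factors (0.09) lie within it.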

How the data were processed

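The deposited table gives log2(TPM + 1) per gene entry and sample, which per the submitters' notes and the study's methods the authors made with kallisto (0.45.0 in the notes) on human build hg19. The labels name a strand-specific total RNA kit that depletes ribosomal RNA and the methods a poly(A)-selecting kit. Most snoRNAs lack a poly(A) tail, so the kit bears on the guests. Whether strand was used in counting is not given in the sources used here, so reads of hosts and genes on the opposite strand may not be told apart. Taken back from the log scale, each column summed to 1e+06. Each level is therefore relative to the rest of the RNA and depends on the transcript length used.

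The table was used without further scaling. Entries with at least 1 TPM in at least 4 samples were compared with limma 3.58.1 (R 4.3.3; lmFit, eBayes with trend, Benjamini-Hochberg adjustment), which was first tested on simulated data. The study's count model, DESeq2, needs counts and was not run. Guest sums were tested by exact permutation of the sample labels, two-sided. Gene positions and transcript lengths came from GENCODE 44 on GRCh37 and start sites from RefSeq. The samples were grouped by the labels. Given sample by sample are the 8 highest noncoding hosts, NOP56, NOP58, NCL and every host with an unadjusted p of 0.05 or less, and from each list the 3 highest and 3 lowest estimates and any call. Alternatives to the pseudocount, the filter, the scaling, the variance trend, the length trend, the replicate block and the set of samples were run. The members and lists were chosen with earlier results of these data known. Figures were drawn with matplotlib 3.10.9.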

Additional observations from a re-analysis of the deposited data

Results flagged for a closer look

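In 4 of the 66 groups of 4 samples examined, 1 sample lay far from the other 3 by Dixon's criterion, which chance alone meets in about 1 in 20 groups. EPB41L4A-AS1 was 5.81 in Siglec-XII replicate 4, while the other Siglec-XII samples lay between 5.59 and 5.60. This value is also below every empty vector sample, and the adjusted p without the sample stays under the threshold. EPRS was 6.08 in Siglec-XII replicate 2, below the 6.34 to 6.38 of the others. SNHG15 was 4.32 in Siglec-XII replicate 3, below 4.55 to 4.58. SNHG25, the host with the widest spread, was 4.32 in empty vector replicate 4, above 2.86 to 3.10.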

How the results depend on the processing

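EPB41L4A-AS1 was called under all 18 alternatives, with adjusted p-values of 0.000542 to 0.0227. SNHG6 was lost without a filter (adjusted p = 0.0615), without the variance trend (0.0573) and without Siglec-XII replicate 2 (0.0523), and its lowest value was 0.00796. ZFAS1 was lost without a filter (0.0772), without the variance trend (0.0990) and in 4 of 8 omissions of a sample, over a range of 0.00565 to 0.0990. The number of hosts called, 3, was 1 without a filter and 1 without the variance trend, and 1 to 3 with each sample left out. All calls over the table, 101, became 51 without a filter, 54 without the variance trend and 23 without small RNA entries, and 49 (without empty vector replicate 3) to 159 (without empty vector replicate 2) with a sample left out. Of these calls 53 of 101 were higher with Siglec-XII, against 28 of 86 under quantile normalization, 24 of 82 with equal upper quartiles, 25 of 73 without the most abundant entries and 21 of 79 without the length trend. RPL5 was called with equal upper quartiles, 1 of the translation hosts. The difference in the noncoding TPM share, -0.0301 percentage points, was -0.0524 without the mitochondrial and 100 most abundant entries, where the total is smaller. The NMD list had 0 to 1 calls with a sample left out (SMG9 without empty vector replicate 2), and the guests 0 to 1 (SNORD12B without Siglec-XII replicate 4). The cause of the other changes was not tested.

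The estimate changed sign under some alternative for 9 hosts, with no adjusted p of a reversed value under 0.802. With each sample left out, NCL ran from -0.0862 to 0.0205, CCAR1 from -0.110 to 0.0707, SNHG16 from -0.0388 to 0.0303, SNHG4 from -0.129 to 0.0326, SNHG25 from -0.303 to 0.456, SNHG9 from -0.0184 to 0.333, SNHG20 from -0.223 to 0.0140 and SNHG18 from -0.0508 to 0.105. NCL was 0.0225, SNHG25 -0.0038 and SNHG18 -0.0378 under quantile normalization. SNHG18 was also -0.0401 with equal upper quartiles and -0.0244 without the most abundant entries. Without the length trend SNHG18 was -0.0417 and EPRS -0.000724.

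The replicate numbers gave no sign of pairing: the correlation of the deviations of samples with the same number ran from -0.0742 to 0.0592. For samples with unlike numbers it ran from -0.117 to 0.0687. Whether samples of the 2 groups shared a culture day or batch was not tested. With the replicate number as a block, 2 hosts were called, ZFAS1 having an adjusted p of 0.0955, and 69 entries in all, 18 of them higher.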
